A study of Mus musculus with 17 samples.

Results

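The genes described here are 10 members of the circadian clock: the PAR bZIP factors Dbp, Tef and Hlf, and the repressors Per1, Per2, Per3, Cry2, Nr1d1, Nr1d2 and Ciart. They were chosen by name from 23719 entries of a colon RNA-seq table, with their difference between GWI and control colons already known. That difference is therefore given for these 10 genes as a description, without p-values. Counts of these genes past a significance threshold describe the set and are not read as evidence. Bulk RNA was sequenced from the colons of 17 male C57BL/6 mice aged 32 to 34 weeks. The 8 GWI mice modelled Gulf War illness and were exposed for 7 days to pyridostigmine bromide (PB) in their water, at 2 mg/kg; PB blocks the breakdown of acetylcholine. PB was then withdrawn, and colons were taken at day 30. The 9 control mice drank water. The time of day at which colons were taken is not given in the sources used here.

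The circadian clock is a loop of transcription and repression that runs in nearly every cell, the cells of the gut wall included. The activators Arntl (also called Bmal1) and Clock, or Npas2 in place of Clock, bind E-box sequences and switch on the Per and Cry genes, whose proteins then repress the same activators. A second loop passes through Nr1d1 and Nr1d2 (REV-ERB alpha and beta), which repress Arntl, Npas2 and Nfil3 at RORE sequences, where the ROR receptors activate. Dbp, Tef and Hlf are outputs of the E-box loop and activate genes through D-box sequences, which Nfil3 represses. Over a day, Dbp, Nr1d1 and Ciart therefore peak at a phase nearly opposite to that of Arntl and Npas2.

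Total counts lay between 16744096 and 20741212 in control colons and between 16293537 and 18389686 in GWI colons. Levels of the genes are in CPM, a gene's count relative to the total of its library, with totals scaled by the trimmed mean of M values (TMM). All 10 genes passed the filter on low counts. The lowest level of any of them in any mouse was that of Ciart in GWI 5, at 3.41 CPM.

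Some libraries stood apart from the others in both groups, more of them in the control group. Control 6 and Control 7 had small intestine markers, with 119 and 314 CPM of Fabp6, an ileal bile acid-binding protein, against at most 6.90 CPM in any other mouse. The 10 small intestine markers summed to 694.9 and 1479 CPM in these libraries and to 171.5 to 565 CPM in the others, with Apob as the most abundant. In Control 9 the 10 most abundant genes took 23.1% of the counts, against 9.72% to 17.3% in the other control mice and 11% to 12.8% in GWI colons. Control 1 and GWI 5 differed from their groups in epithelial genes. The carbonic anhydrase Car1 stood at 1988 CPM in Control 1, against 7914 to 29280 CPM in the other control mice, and at 3865 CPM in GWI 5, against 7849 to 18818 CPM in the other GWI mice. The water channel Aqp8 was highest in both, at 1934 CPM in Control 1 (control median 28.9 CPM) and at 1047 CPM in GWI 5 (GWI median 149 CPM). The same mice had the highest Arntl of their groups, 16.1 CPM in Control 1, where the next control mouse had 6.54 CPM, and 45.5 CPM in GWI 5, where the next GWI mouse had 23.7 CPM.

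RNA of smooth muscle markers was lower in GWI colons, although the summed levels of the groups overlapped. All 10 smooth muscle markers had a negative log2 fold change (median −0.91), and 7 of them passed as lower in the GWI group (adjusted p-value under 0.05, quasi-likelihood test of edgeR), against 13.5% of all 14146 tested genes that were lower and 13.4% that were higher. Their summed level ran from 3690 to 23920 CPM in control colons (median 11580) and from 3658 to 11830 CPM in GWI colons (median 5142), with Myh11, smooth muscle myosin, as the most abundant gene. Control 7, 8 and 9 had the lowest control sums, at 6790, 4702 and 3690 CPM, and the next control mouse had 11190 CPM. Of 11 colon epithelium markers, 6 were higher in GWI colons and the median log2 fold change was 0.38. The most abundant of these, Car1, had a log2 fold change of −0.06, and the summed epithelial level was 24240 to 41470 CPM in control and 27360 to 45290 CPM in GWI colons. Enteric neuron markers had negative values in 10 of 10 cases (median −0.58), but 0 passed in edgeR, where 0 had an unadjusted p-value under 0.05, and 0 in DESeq2, while 9 passed as lower with limma-voom weights. They had summed levels of 78.5 to 569.9 CPM in control and 105 to 377 CPM in GWI colons. The lowest control sums were again those of Control 7, 8 and 9, at 78.5, 112 and 101 CPM, below the next at 246.6 CPM. Among the remaining lists, 2 of 6 adipocyte markers, Cidec and Pck1, were higher, and Adipoq, Plin1, Lep and Retn did not pass. The 6 summed to 168 to 233 CPM in control and 158 to 657 CPM in GWI colons, with Pck1 as the most abundant. In Control 2, Pck1 had 203 CPM of a sum of 224 CPM, and Adipoq 0.398 CPM, so the sum does not track Adipoq. Lower were 2 of 6 fibroblast markers and 1 of 5 tested immune markers, the latter a share close to that of all tested genes. With limma-voom weights 5 fibroblast and 2 immune markers were lower. That fit called more genes throughout, 4180 of 14146 as lower and 3911 as higher, against 1903 and 1889 in edgeR. Its marker counts, those of neurons and glia included, therefore stand against larger shares. Of 6 glial markers 1 was higher and 2 were lower, and 4 were lower both in DESeq2 and with limma-voom weights. Their summed level ran the other way, at 194 to 413 CPM in control and 389 to 515 CPM in GWI colons, with Erbb3 as the most abundant. Of 5 tested small intestine markers 1 was higher and 2 were lower, but 2 were higher and 0 lower with limma-voom weights. None of these marker genes was at 0 in every mouse. How far the makeup of the samples set the levels of the clock genes was not tested. In bulk tissue, fewer cells of a type and less RNA per cell cannot be told apart. For the 10 genes, for Clock and Cry1, and for each listed gene that passed, where the muscle markers moved the value by more than 1.5 times, the value from a fit that also held the difference between muscle and epithelium markers as a covariate is given beside it.

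Most of the clock repressors and all 3 PAR bZIP factors were lower in GWI colons than in control colons. Of the 10 genes, 7 were counted as lower in the edgeR fit (adjusted p-value under 0.05), as were 13.5% of the 14146 tested genes. Their count in the higher direction was 0, against 13.4% of all tested genes. The median log2 fold change was −0.67 over the 10 genes and −0.056 over all tested genes. The 7 were Hlf, Ciart, Dbp, Per2, Per3, Tef and Nr1d2, from the largest difference to the smallest in this fit. Per1, Cry2 and Nr1d1 were not among them and had small positive values. With the muscle covariate the order of the 7 was Ciart, Per2, Nr1d2, Hlf, Per3, Dbp and Tef. Without Control 6 and Control 7 the count was 6, and Nr1d2 (−0.49) dropped out. Without Control 1 and GWI 5 it was 7, with a median of −0.61. Since the genes were chosen with this contrast known, the counts describe the set and nothing is read from them.

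**Figure D1:**
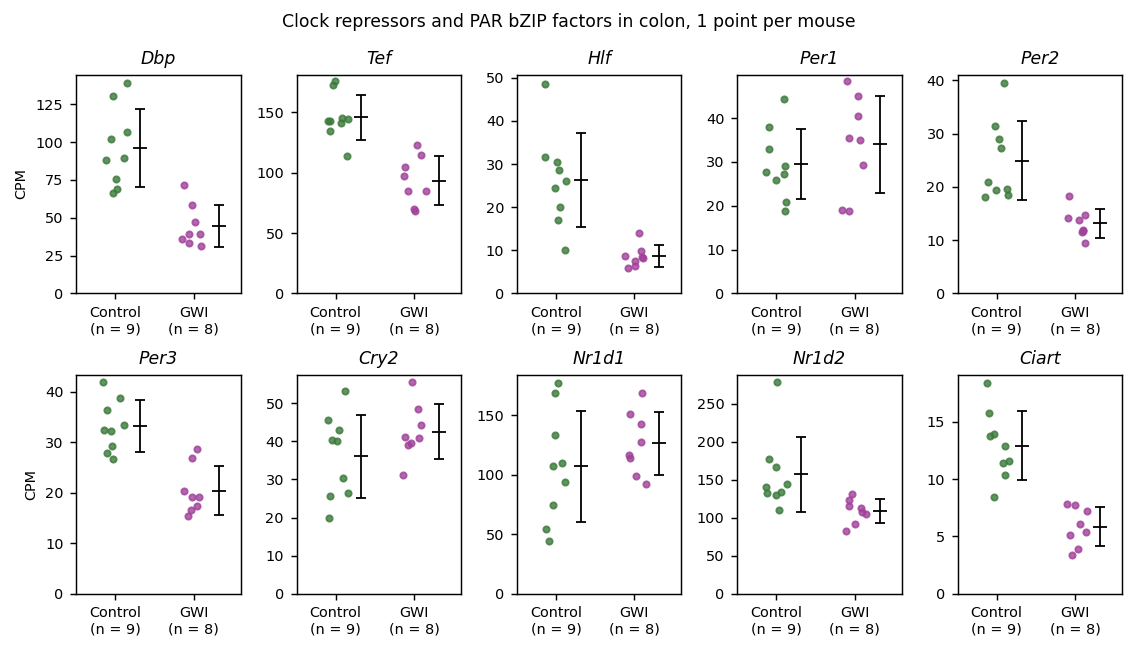
Levels of the 10 genes in CPM on linear axes that start at 0, with 1 point per mouse for 9 control (green) and 8 GWI (purple) colons; black marks are the mean and bars the SD. Ciart is the gene whose groups do not meet, at 8.41 CPM or more in control and 7.86 CPM or less in GWI colons, while Per1, Cry2 and Nr1d1 overlap widely.

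Dbp, Tef and Hlf form the PAR bZIP family, named for a domain rich in proline and acidic amino acids beside the basic leucine zipper. Dbp has a steep daily rhythm in most tissues. It ranged from 66.1 to 139 CPM in control colons (median 89.5) and from 31.4 to 71.3 CPM in GWI colons (median 39.3). GWI 8 was the GWI mouse that reached into the control range, above Control 8 and Control 9, and the other 7 lay below every control mouse. Its log2 fold change was −1.12 (SE 0.19), a 2.17-fold difference, and −0.71 with the muscle covariate.

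Tef, the thyrotroph embryonic factor, first found in the pituitary, was the least variable of the 10 in control colons, with a coefficient of variation of 12.8%. It ran from 114 to 176 CPM in control colons (median 143) and from 68.6 to 123 CPM in GWI colons (median 91.2). GWI 7 and GWI 8 overlapped the control range, which Control 8 alone extended downward, since the next lowest control mouse had 135 CPM. On the log2 scale the difference was −0.64 (SE 0.12).

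Hlf, first known as a fusion partner in leukemia, differed most in the edgeR fit without a covariate. Its level was 10.2 to 48.6 CPM in control colons (median 26) and 5.88 to 13.9 CPM in GWI colons (median 8.34). The groups met only through GWI 8 at 13.9 CPM and Control 8 at 10.2 CPM, the GWI maximum and the control minimum. The log2 fold change was −1.61 (SE 0.24), a 3.05-fold difference. With the muscle covariate it was −0.76, and Ciart (−1.04), Per2 (−0.84) and Nr1d2 (−0.81) differed more.

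To set the family members against each other, levels were divided by the length of each gene's exons. Dbp stood at 32.2 ± 8.67 CPM per kb (SD, n = 9) in control and 14.8 ± 4.63 (SD, n = 8) in GWI colons. Tef stood at 18.6 ± 2.37 and 11.9 ± 2.54 CPM per kb, and Hlf at 3.94 ± 1.62 and 1.29 ± 0.372 CPM per kb. Dbp exceeded Tef by more than the larger SD in control colons but not in GWI colons. Summed over the family, the level was 38.1 to 73.3 CPM per kb in control (median 51.4) and 20.8 to 40.5 CPM per kb in GWI colons (median 26), with 7 of 8 GWI mice below every control mouse. Tef made up 26.5% to 42.6% of that sum in control and 36.0% to 47.3% in GWI colons, and 5 of 8 GWI mice lay above every control mouse. Nfil3, the repressor that competes for the same D-boxes, came to 0.791% to 4.61% of the family sum in control and 8.98% to 21.2% in GWI colons, and these ranges did not overlap. The genes on both sides of this ratio were chosen with their opposite differences known, so nothing is read from the separation.

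The Period genes had values of both signs, and differences between them were not tested. Per1, which responds to light, cAMP and glucocorticoids as well as to the clock, ranged from 18.9 to 44.3 CPM in control colons (median 27.6) and from 18.8 to 48.4 CPM in GWI colons (median 35.3). Its GWI values split, with GWI 1 and GWI 2 at 18.8 and 19.0 CPM and the other 6 mice at 29.4 CPM or more. Its log2 fold change of 0.21 (SE 0.20) was about 1 SE from 0, and it was 0.32 with the muscle covariate, 0.33 without Control 1 and GWI 5, 0.13 without Control 6 and Control 7, and 0.12 to 0.31 without single mice.

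Per2, which mice need for lasting behavioral rhythms in constant darkness, was lower. It ran from 18.2 to 39.6 CPM in control colons (median 20.8) and from 9.47 to 18.4 CPM in GWI colons (median 12.8). GWI 5, at 18.4 CPM, was the GWI mouse that entered the control range, just above Control 8. Per2 had a log2 fold change of −0.92 (SE 0.17), and −0.56 without Control 1, 6, 7 and 9. The 5 control mice that then remain had 18.2 to 20.8 CPM.

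Per3, dispensable for the core oscillator but strongly rhythmic in peripheral tissues, had 26.7 to 42.0 CPM in control (median 32.4) and 15.5 to 28.7 CPM in GWI colons (median 19.2). As with Tef, GWI 7 and GWI 8 were the GWI mice within the control range. The difference was −0.70 (SE 0.13) on the log2 scale.

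The balance among the Period genes can be read from their shares. Per kb, Per1 made up 27.7% to 50.4% of the 3 Period genes in control colons (median 42.3%) and 45.6% to 63.3% in GWI colons (median 60.0%). This share was above every control mouse in 7 of 8 GWI mice. The summed Period level overlapped, at 9.59 to 18.0 CPM per kb in control and 6.57 to 14.0 CPM per kb in GWI colons.

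Cry2, a cryptochrome that with the Period proteins represses Arntl and Clock, ranged from 19.8 to 53.3 CPM in control colons (median 40.2) and from 31.1 to 55.7 CPM in GWI colons (median 41.1). Control 7, 8 and 9 had the lowest values, at 26.5, 19.8 and 25.6 CPM, and all GWI mice lay above them. These mice were also the lowest of the control group in summed muscle and neuron markers. Cry2 had a log2 fold change of 0.24 (SE 0.17), and 0.62 with the muscle covariate. Its share of Cry1 and Cry2 per kb centred near the same point in both groups, at medians of 48.9% and 52.1%, but spread from 45.3% to 55.9% in control and from 30.2% to 58.7% in GWI colons.

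The REV-ERB genes had values of opposite sign, and the difference between them was not tested. Nr1d1 ran from 44.0 to 177 CPM in control colons (median 107) and from 92.5 to 169 CPM in GWI colons (median 122). All GWI values lay inside the control range. Control 7, 8 and 9, lowest of the control mice in summed muscle and neuron markers, extended it downward at 74.5, 54.3 and 44.0 CPM. The log2 fold change of Nr1d1, 0.24, equalled its error (SE 0.24). It was 0.78 with the muscle covariate, 0.40 without Control 1 and GWI 5, and 0.15 to 0.36 without single mice.

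Nr1d2, its paralog, had 110 to 278 CPM in control (median 140) and 82.0 to 131 CPM in GWI colons (median 110). Control 9 was far above the next control mouse at 177 CPM, and 4 of 8 GWI mice fell below every control mouse. The log2 fold change was −0.53 (SE 0.15), −0.81 with the muscle covariate and −0.34 without Control 1, 6, 7 and 9. Per kb, Nr1d1 made up 64.0% to 69.7% of the REV-ERB pair in GWI colons, which lies inside the control range of 21.8% to 72.9%. Control 9 was the control mouse with the lowest Nr1d1 and the highest Nr1d2.

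Ciart (also called Chrono), a repressor that binds Arntl and dampens its activity, was the least abundant of the 10 in CPM. It ranged from 8.41 to 18.4 CPM in control colons (median 12.9) and from 3.41 to 7.86 CPM in GWI colons (median 5.75). Every GWI mouse lay below every control mouse, which was so for 0.523% of all tested genes. The log2 fold change was −1.14 (SE 0.19), a 2.21-fold difference, and −1.04 with the muscle covariate, a smaller step than for Dbp or Hlf.

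Per kb of exon, the order of mean levels in control colons was Nr1d1, Dbp, Nr1d2, Tef, Ciart, Cry2, Per1, Per2, Hlf and Per3. Nr1d1 (34.8 ± 15.2 CPM per kb), Dbp and Nr1d2 (29.1 ± 9.16; SD, n = 9) did not differ from one to the next beyond the larger SD, nor did the 6 genes from Ciart (5.72 ± 1.32) down to Per3 (3.46 ± 0.529). The steps from Nr1d2 to Tef and from Tef to Ciart were larger than the SD. In GWI colons the order was Nr1d1, Nr1d2, Dbp, Tef, Cry2, Per1, Ciart, Per2, Per3 and Hlf. There Nr1d1 (41.1 ± 8.55 CPM per kb; SD, n = 8) stood apart from Nr1d2 (20.1 ± 2.92) by more than the larger SD. The steps from Nr1d2 to Dbp, from Tef to Cry2 (6.73 ± 1.15), from Per1 (6.03 ± 1.96) to Ciart (2.59 ± 0.754) and from Per3 (2.13 ± 0.499) to Hlf were also larger than the SD, and the other 4 steps were not.

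The same mice tended to sit at the ends of several genes. Among control mice, Control 8 was lowest for 7 of the 10 genes, and in GWI colons GWI 7 was highest for 7 and GWI 1 lowest for 6. The spread within a group was widest for Nr1d1 and Hlf in control colons, with coefficients of variation of 43.6% and 41.2%, against 20.8% and 28.8% in GWI colons.

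Several of these genes share exon sequence with a gene on the other strand, and the strand setting of the counting is not given in the sources used here. In the GENCODE M21 annotation of GRCm38, Dbp (chr7:45705088-45710203, plus strand) shares 539 of 2993 exon bases, 18.0%, with Sphk2. Sphk2 had a log2 fold change of 0.62 (SE 0.10), the opposite direction from Dbp. Nr1d1 (chr11:98767932-98775333, minus strand) shares 263 exon bases, 8.55%, with Thra, whose log2 fold change was 0.14 (SE 0.13). Cry2 shares 4.67% and Tef 2.45% of their exon bases with antisense transcripts. Hlf, the Period genes, Nr1d2 and Ciart share none.

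The rest of the clock was read from 5 lists that hold 42 other genes, of which 39 were tested. With p-values of the same edgeR test, adjusted by Benjamini-Hochberg over all tested genes, 12 rose and 5 fell in GWI colons. With the muscle covariate 12 rose and 1 fell, and without Control 6 and Control 7 the numbers were 8 and 5. These lists were also written with earlier results of the same contrast known, so their p-values are not independent evidence of a direction. Of all tested genes 13.4% were called higher and 13.5% lower, 26.8% in either direction, so the number that fell is close to that share.

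The activators and RORE-phase genes included the largest increases. Of 8 tested genes, 3 rose and 1 fell, and the median log2 fold change of the list was 0.33. Arntl rose from a median of 5.76 CPM in control colons (range 4.57 to 16.1) to 19.8 CPM in GWI colons (range 14.3 to 45.5), with a log2 fold change of 1.72 (SE 0.26, edgeR adjusted p = 0.000639). Control 1 was the control mouse that overlapped the GWI range. Npas2, the partner that can replace Clock, rose 2.99-fold (log2 fold change 1.58, SE 0.25, edgeR adjusted p = 0.00075), with all 8 GWI mice above every control mouse. Its groups nearly met, at 19.8 CPM in Control 1 and 19.9 CPM in GWI 2. Nfil3 rose 2.54-fold (log2 fold change 1.35, SE 0.24, edgeR adjusted p = 0.00151), again without overlap, as 1.83% of tested genes did. Rora, a receptor that activates at ROREs, fell, with a log2 fold change of −0.67 (SE 0.15, edgeR adjusted p = 0.00446), but with the muscle covariate it did not pass (−0.46, adjusted p = 0.0649).

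Clock, Cry1 and Arntl2 did not pass. Arntl2, the paralog of Arntl, had a log2 fold change of −0.66 (SE 0.25, edgeR adjusted p = 0.0587), of a size with that of Rora. Clock had a log2 fold change of 0.08 (SE 0.16), and 0.03 to 0.25 without single mice. Its sign turned with the muscle covariate (−0.29), and it passed with limma-voom sample weights (0.37) and without Control 1, 6, 7 and 9 (0.34). Cry1 stood at 0.35 (SE 0.23), at 0.74 with the muscle covariate (adjusted p = 0.0905) and at 0.19 with limma-voom. GWI 5 had 50.4 CPM of Cry1 and the next GWI mouse 25.8 CPM. Without GWI 5 the value was 0.11, without Control 1 and GWI 5 it was 0.22, and without any other single mouse it was 0.28 to 0.47.

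**Figure D2:**
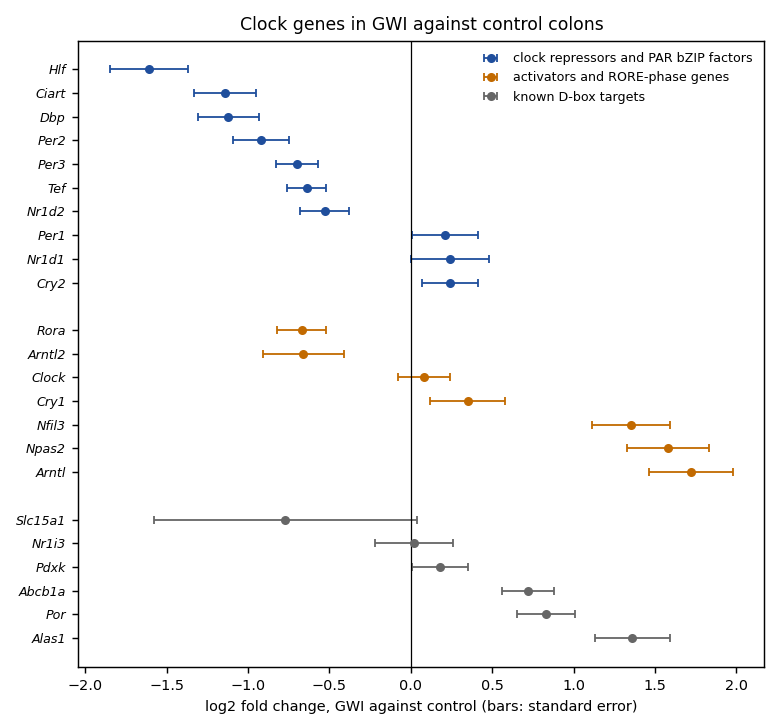
Log2 fold changes of GWI against control colons (x axis; bars are the standard error of the fit to 9 control and 8 GWI mice) for the 10 clock repressors and PAR bZIP factors (blue), 7 of the 8 tested activators and RORE-phase genes (orange) and the 6 tested D-box targets (grey). Hlf is at the lower end with −1.61 and Arntl at the upper end with 1.72, and the D-box targets Alas1, Por and Abcb1a are to the right of 0.

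The ratio of Dbp to Arntl brings both arms together in each mouse. In control colons the CPM ratio ran from 4.69 to 23.8 with a median of 16.6, and in GWI colons from 0.69 to 4.98 with a median of 1.90. Control 1 had the lowest control ratio, 4.69, below GWI 8 at 4.98, and the next control mouse had 11.5. GWI 5, with the lowest ratio, had the lowest Dbp and the highest Arntl of all mice. Without Control 1 and GWI 5 the ranges were 11.5 to 23.8 and 1.40 to 4.98. Control 1 alone made the groups overlap, and these mice were picked after their values were seen. Both genes of the ratio were also chosen with this contrast known, so nothing is read from the separation.

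**Figure D3:**
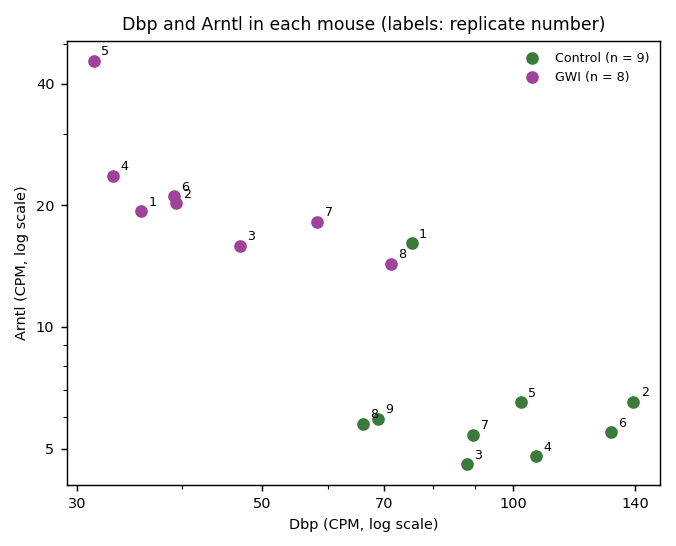
Dbp (x axis, CPM, log scale) against Arntl (y axis, CPM, log scale) in each of 9 control (green) and 8 GWI (purple) colons, with the replicate number beside each point. Control 1 lies beside GWI 8, away from the other 8 control mice, which all have Arntl at 6.54 CPM or less.

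Other E-box outputs had values of both signs. Of 10 such genes, 1 rose and 3 fell (median log2 fold change −0.08). Bhlhe41 (Dec2), a repressor at E-boxes, fell with a log2 fold change of −1.20 (SE 0.22, edgeR adjusted p = 0.00145), and Tspan4, a tetraspanin, by a like amount (−1.01, SE 0.19, edgeR adjusted p = 0.00195). Klf9, a Krüppel-like factor that glucocorticoids also induce, had −0.37 (SE 0.12, edgeR adjusted p = 0.0246). With the muscle covariate none of the 3 passed, at −0.58, −0.33 and −0.22, and Klf9 also missed the threshold without GWI 2 or without GWI 4. Klf10 rose 2.35-fold (log2 fold change 1.23, SE 0.20, edgeR adjusted p = 0.000765), with all GWI mice above all control mice, as for 1.83% of tested genes. Here too the groups nearly met, at 59.4 CPM in Control 1 and 60.3 CPM in GWI 1. Antisense transcripts cover 19.0% of the exon bases of Bhlhe41 and 13.4% of those of Tspan4. The clock-controlled genes Wee1 and Usp2 had log2 fold changes of 0.03 (SE 0.16) and −0.03 (SE 0.17).

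The enzymes and ubiquitin ligase parts that modify Period and cryptochrome proteins differed little. Of 10 genes, 3 rose, with a list median of 0.16. Csnk1d, the casein kinase that phosphorylates Period proteins, had a log2 fold change of 0.33 (SE 0.11, edgeR adjusted p = 0.0423). Gsk3b (0.23, SE 0.07, edgeR adjusted p = 0.0275) and Prkaa1, the AMPK subunit that marks cryptochromes for degradation (0.32, SE 0.11, edgeR adjusted p = 0.0361), were of similar size. These calls were not firm: Csnk1d and Prkaa1 each lost theirs when any of 11 of the 17 mice was left out, and Gsk3b without Control 5 or without GWI 7. With the muscle covariate Prkaa1 stood at 0.03 and Csnk1d at 0.60, and all 3 missed the threshold without Control 6 and Control 7 (adjusted p = 0.0847 for Prkaa1, 0.0698 for Csnk1d and 0.0545 for Gsk3b), where their log2 fold changes of 0.31, 0.34 and 0.23 hardly moved.

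Known targets of the PAR bZIP factors had mostly positive values. Of 8 genes on this list, 6 were tested, 3 rose, and the median log2 fold change was 0.45. Alas1, the first enzyme of heme synthesis, rose 2.56-fold (log2 fold change 1.36, SE 0.23, edgeR adjusted p = 0.000947), and 7 of 8 GWI mice exceeded every control mouse. Por, the electron donor of cytochrome P450 enzymes, rose 1.78-fold (log2 fold change 0.83, SE 0.18, edgeR adjusted p = 0.00375), with a lowest GWI value of 256 CPM and a highest control value of 236 CPM. Abcb1a, the P-glycoprotein pump of the gut lining, had a log2 fold change of 0.72 (SE 0.16, edgeR adjusted p = 0.00471), and 0.51 with the muscle covariate, where it did not pass (adjusted p = 0.112). Pdxk (0.18, SE 0.17) and Nr1i3 (0.02, SE 0.24) did not pass, and both share exons with a gene on the other strand over 39.0% and 74.9% of their bases. Among those that rose, this share was 10.1% for Abcb1a and 7.53% for Alas1. Slc15a1, the peptide carrier of the small intestine, did not pass (−0.77, SE 0.81). Control 1 had 146 CPM of it and the next control mouse 21.8 CPM, and the medians ran the other way, at 5.55 CPM in control and 7.22 CPM in GWI colons. Cyp2a4 was at 0 in every mouse, and Cyp2a5 was at most 0.0566 CPM.

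Glucocorticoids set the phase of peripheral clocks and induce Per1 directly, so 5 of their targets were read as well. Sgk1 rose 2.41-fold (log2 fold change 1.27, SE 0.22, edgeR adjusted p = 0.00109), with Control 1 at 94.0 CPM as the highest control mouse. Fkbp5 also rose (0.49, SE 0.14, edgeR adjusted p = 0.019), while Zbtb16 fell (−1.45, SE 0.39, edgeR adjusted p = 0.0133). Tsc22d3 and Dusp1 did not pass, at 0.16 (SE 0.24) and 0.61 (SE 0.27). Fkbp5 and Zbtb16 both missed the threshold with the muscle covariate (0.39 and −0.34, adjusted p = 0.193 and 0.565) and without Control 1, 6, 7 and 9 (0.30 and −0.86, adjusted p = 0.0588 and 0.0685), and Fkbp5 also without Control 6 and Control 7 (0.39, adjusted p = 0.0622).

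Variation between mice of the same group does not use the difference between the groups. Dbp was therefore correlated with the other 9 genes and with 6 activators and RORE-phase genes, among them Arntl, Npas2, Clock, Cry1 and Nfil3, on log2 CPM, within each group, which gave 30 relations. By Pearson's r, 12 relations had an unadjusted exact permutation p under 0.05, and 0 had an adjusted one. By Spearman's rho, 8 did unadjusted, and 3 passed the adjustment, all of them in GWI colons.

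In GWI colons the relations that passed by rank were with Nr1d2, Ciart and Arntl, the last of them negative. The rank correlation was 0.93 with Nr1d2 (n = 8, exact permutation p = 0.00223, adjusted p = 0.0456; Pearson r = 0.83, exact p = 0.0128, adjusted p = 0.0945). With Ciart rho was 0.90 (n = 8, exact permutation p = 0.00456, adjusted p = 0.0456; r = 0.81, exact p = 0.0157, adjusted p = 0.0945). With Arntl it was −0.90 (n = 8, exact permutation p = 0.00456, adjusted p = 0.0456; r = −0.74, exact p = 0.0361, adjusted p = 0.124). Without GWI 7 and GWI 8, the mice farthest from the Dbp median, r was 0.82, 0.88 and −0.80. The largest Pearson value was that of Per3 (r = 0.93, exact permutation p = 0.00226, adjusted p = 0.0677; rho = 0.88, exact p = 0.00724, adjusted p = 0.0543), and it was 0.79 without those 2 mice. Tef followed with r = 0.87 (exact permutation p = 0.00538, adjusted p = 0.0807; rho = 0.81, exact p = 0.0218, adjusted p = 0.109). The relation to Hlf (r = 0.62) rested on GWI 8, the mouse with the highest Dbp (71.3 CPM) and the highest Hlf (13.9 CPM) of its group, since r was 0.13 without it. GWI 7, second in Dbp at 58.2 CPM, had 8.41 CPM of Hlf, near the GWI median of 8.34 CPM. Per2 did not go with Dbp in either group (r = −0.16 in GWI and −0.18 in control colons, exact permutation p = 0.697 and 0.641, adjusted p = 0.747 for both; rho = −0.12 and −0.05, exact p = 0.793 and 0.912, adjusted p = 0.881 and 0.948).

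In control colons the largest value was that of Ciart (n = 9, r = 0.80, exact permutation p = 0.00945, adjusted p = 0.0945; rho = 0.80, exact p = 0.0138, adjusted p = 0.083). Without Control 2 and Control 6, which were farthest from the Dbp median, r was 0.72. Nr1d1 and Hlf both had r = 0.70 with Dbp (exact permutation p = 0.0372 and 0.0304, adjusted p = 0.124 for both; rho = 0.72 and 0.58, exact p = 0.0369 and 0.108, adjusted p = 0.138 and 0.231), and without those mice r was 0.52 for Nr1d1 and 0.70 for Hlf. With the muscle score regressed out these relations were weaker, at r = 0.33 for Nr1d1 and 0.18 for Hlf, while Ciart had 0.71. Arntl had r = −0.24 (exact permutation p = 0.58, adjusted p = 0.725; rho = −0.03, exact p = 0.948, adjusted p = 0.948), with the other control mice in a narrow range beside Control 1. Clock was negative in both groups, with r = −0.65 in control and −0.73 in GWI colons (exact permutation p = 0.0496 and 0.0382, adjusted p = 0.124 for both; rho = −0.67 and −0.69, exact p = 0.0589 and 0.0694, adjusted p = 0.196 and 0.208). Without the 2 farthest mice of each group r was −0.77 and −0.86. Without single mice it ran from −0.72 to −0.59 in control and from −0.89 to −0.48 in GWI colons. With library size alone the GWI relation of Clock passed (r = −0.87, exact permutation, adjusted p = 0.0368), and with the muscle score regressed out the control value was −0.17. Control 1 weighed on several relations: without it r was 0.96 for Nr1d1, 0.93 for Cry2, 0.88 for Npas2 and 0.85 for Ciart, and all 4 passed the adjustment (exact permutation, adjusted p = 0.00484, 0.00484, 0.0253 and 0.0435). Whether a relation differed between control and GWI colons was not tested.

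Across all 17 mice, with group means removed, genes were ranked by their correlation with the mean of the 10 genes, as a description without a test. The 10 genes themselves ranged from r = 0.93 for Tef to 0.22 for Nr1d2, with Per2 at 0.35. Each of the 10 is part of that mean, which raises its own r, so these values do not compare with those of other genes. Among 13493 genes, those most like the mean, apart from the 10, were Lats2 (r = 0.88), Mmp16 (0.86), Setd7 (0.84), Neo1, Fam76a, Gpank1 and Apcdd1 (0.82 each), and Ndnf, Zfp36l1 and Nptn (0.80 each). The lowest were Haus8 (−0.86) and Amt, Tedc1, Dnaaf2 and Tk1 (−0.85 each). The upper list depended on single mice, since 3 of its 10 genes remained without Control 8, 4 without Control 9, 5 without GWI 7, and 6 without Control 1, GWI 1, GWI 5 or GWI 8. By rank correlation 4 of the 10 remained.

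Promoter sequences show which of these genes carry the textbook clock motifs near their start. RefSeq windows (build GRCm38.p6) from 250 bases before to 50 bases after the start were found for 9 of the 10 genes, in 11 windows; Per2 was not among them. On both strands, the E-box CACGTG was in 7.15% of 32851 windows of all genes, the D-box TTATGTAA or TTACGTAA in 1.06%, the cAMP response element (CRE) TGACGTCA in 1.79%, and the RORE TAGGTCA or TGGGTCA in 6.45%. Among the genes described here, Tef, Per1 and Ciart held an E-box, Per3 a D-box and Hlf a CRE, and no window held the RORE letters. Of 8 activators and RORE-phase genes with a window, Arntl and Nfil3 held the RORE letters and Cry1 an E-box. A match is a description of the letters, not a measured binding site.

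The stretches that hold these motifs outside annotated exons are printed 5′ to 3′ on the strand of the gene, with the motif in capitals, to show where the letters were matched. The Ciart stretch (chr3:95882252-95882359, minus strand, within the body of C920021L13Rik) holds 3 E-boxes, starting 116, 58 and 44 bases before the start. The Per3 stretch (chr4:151044801-151044885, minus strand, within the body of Camta1) holds 2 D-boxes, starting 205 and 158 bases before the start. The Hlf stretch (chr11:90390918-90390941, minus strand) lies outside annotated genes and holds a CRE 9 bases before the start. The Per1 (chr11:69098768-69098803, plus strand) and Tef (chr15:81811261-81811296, plus strand) stretches hold 1 E-box each and lie in introns of the longer annotated forms of their own genes.
Ciart: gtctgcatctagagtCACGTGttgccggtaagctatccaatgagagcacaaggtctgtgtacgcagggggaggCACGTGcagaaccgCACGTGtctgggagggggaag
Per3: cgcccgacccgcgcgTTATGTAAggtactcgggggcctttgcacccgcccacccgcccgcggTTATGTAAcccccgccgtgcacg
Hlf: gcgcggtgcgggcccTGACGTCAc
Per1: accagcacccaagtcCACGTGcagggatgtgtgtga
Tef: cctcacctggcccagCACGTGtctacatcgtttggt
Ciart and Tef, with E-boxes, had log2 fold changes of −1.14 and −0.64, and Per1, also with an E-box, had 0.21. Per3, with D-boxes, had −0.70 and Hlf, with a CRE, −1.61. Dbp (−1.12), Nr1d2 (−0.53), Cry2 (0.24) and Nr1d1 (0.24) held none of the 4 motifs in these windows.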

How the data were processed

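Colon RNA of 9 control and 8 GWI mice was sequenced after poly(A) selection, as paired-end reads. Per the submitters' processing notes, reads were trimmed with Trimmomatic 0.36 and mapped with STAR 2.5.2b to GRCm38; unique hits per gene were counted with featureCounts. The authors deposited raw counts per gene symbol, without normalization; 0 columns were left without a sample, and 48 entries with a repeated symbol were kept as they are.

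Low counts were removed by filterByExpr and libraries were scaled by TMM. The quasi-likelihood test of edgeR 4.0.16 in R 4.3.3 (glmQLFTest after a robust glmQLFit) had condition as the only term, and p-values were adjusted by Benjamini-Hochberg over 14146 tested genes. The test was tried on simulated counts first, a trial from which no result is reported here. The names of several samples begin alike, with no source saying why; this was not modelled, and the mice were treated as independent in every test and permutation. Counting error is small at these depths except for genes near the filter. Log2 CPM used a prior count of 2. Correlations were tested by two-sided exact permutation of the mice (scipy 1.17.1), adjusted over 30 relations. Exon lengths and overlaps came from GENCODE M21.

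The 10 genes and all lists were chosen with earlier results of these data known. Named genes are the 10, Arntl, Clock, Npas2, Cry1 and Nfil3, each listed gene with an adjusted p-value under 0.05, and by likeness the 10 highest and 5 lowest among genes of at least 1 CPM on average. Genes named beside these, such as list members that did not pass, antisense partners and marker genes, were chosen after their values were seen. A further gene of the activator list that the rule takes is not reported here; counts include it. Alternatives were DESeq2 1.42.0 (Wald test, or its size factors), library size alone, limma-voom 3.58.1 with sample quality weights, no filter, at least 10 counts in every mouse, a prior count of 0.5, a replicate block, a muscle minus epithelium covariate, and leaving out each mouse. Fits without Control 6 and 7, without Control 1, 6, 7 and 9, and without Control 1 and GWI 5 were added after seeing the data.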

Additional observations from a re-analysis of the deposited data

Results flagged for a closer look

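Among the 30 named genes outside the likeness list, 60 gene and group combinations were checked for a mouse far from the rest of its group, and 11 had one. Chance gives about 1 in 20 for independent, normally distributed values. The genes here share mice and vary together, so nothing is read from the count. Control 1 stood above the other control mice for Arntl (16.1 CPM), Npas2 (19.8 CPM) and Sgk1 (94.0 CPM). Control 9 stood above them for Nr1d2 (278 CPM), Clock (147 CPM) and Prkaa1 (157 CPM), and Control 6 for Zbtb16 (17.9 CPM). Among GWI mice, GWI 5 was far above the others for Arntl (45.5 CPM), Npas2 (40.5 CPM) and Cry1 (50.4 CPM), and GWI 8 for Bhlhe41 (7.79 CPM). Nr1d2 was the only one of the 10 clock repressors and PAR bZIP factors with such a mouse.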

How the results depend on the processing

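The number of the 10 genes counted as lower was 7 in every fit run except that without Control 6 and 7 (6), and their median log2 fold change ran from −0.75 to −0.62 when single mice were left out and from −0.73 to −0.56 over the other alternatives. Of 280 alternative values of these genes, 279 kept their direction and side of the threshold, Nr1d2 without Control 6 and 7 being the exception. Of 560 values of the other 20 named genes, 507 did, 49 lost the call, 3 gained it, and 1 reversed (Clock, −0.29 with the muscle covariate); the cause was not tested. Other clock genes called numbered 17, 14 to 20 without single mice and 13 to 24 elsewhere (24 with limma-voom, 16 higher and 8 lower). Over all genes, 3792 were called, 2781 to 4818 without single mice, 8091 with limma-voom weights, and 2241 with the replicate block (1415 higher and 826 lower, against 1889 and 1903). Same-numbered mice deviated together with r from −0.51 to 0.11, and 0 of them correlated best with their own number, so the numbers do not pair the mice. With the block, 7 of the 10 genes and 14 other clock genes were called; Csnk1d, Fkbp5, Gsk3b, Klf9 and Zbtb16 were not. Csnk1d and Gsk3b also missed the threshold with library size alone and without the filter.

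Relations with Dbp passing by Pearson numbered 4 with library size alone, 4 with the muscle score regressed out and 6 without Control 1, and 0 to 6 over all fits that left out 1 mouse. With the score regressed out these were Tef, Per3, Nr1d2 and Ciart in GWI colons. There the permutation was of residuals, so its p-values are not exact and make no allowance for the fitted slope. Of the 10 genes most like the mean, 4 remained by rank correlation and 3 to 9 without single mice. Ciart, with the fewest counts of the 10, is where depth limits precision most.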
